A study of Mus musculus with 14 samples.

Results

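The ephrins, Eph receptors, semaphorins, plexins and neuropilins are families of cell surface and secreted proteins that guide growing axons and shape synapses. They were picked out by a rule on gene symbols, set with earlier results of these data known. The rule gave 53 genes among the 18722 genes with a value in any library. The 53 genes were 8 ephrins, 14 Eph receptors, 20 semaphorins of 5 classes, 9 plexins and 2 neuropilins. A value was listed for each of the 53 in at least 1 library and for 50 of them in every library, and all 53 were among the 16569 genes tested.

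Ephrins are bound to the membrane of one cell and bind Eph receptor tyrosine kinases on another, so that signals can run into both cells. A-type ephrins are held by a lipid anchor and B-type ephrins span the membrane. Semaphorins are secreted (class 3) or held at the membrane (classes 4 to 7), and most signal through plexins, with neuropilins as coreceptors for most class 3 members. In the hippocampus these families are known from the layered wiring of the entorhinal and mossy fibre inputs, from the pruning of axons, and from dendritic spines.

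The libraries were made from the hippocampus of C57BL6 mice with a labelled age of 30 days, each wild type or of the genotype KMT2D+/bGeo. By gavage they were given methylcellulose vehicle or, in it, TAK-418 at 1 mg/kg/day, for 2 weeks from 2 weeks of age. TAK-418 blocks LSD1, an enzyme encoded by Kdm1a that takes methyl groups off histone H3. Of the 14 libraries, 3 were from vehicle-treated wild types, 3 from vehicle-treated mutants, 5 from wild types given TAK-418 and 3 from mutants given TAK-418. The title of the series names the question of whether the inhibitor reverses the chromatin changes of these mice. The design text gives 3 or 4 mice for each group, fewer than the 5 libraries of wild types given TAK-418, and the labels do not say whether the libraries of a group came from separate mice. Replicate numbers were given here in accession order and only name a library. The labels give no litter, sex or date, and name 2 library kits (NEBNext Ultra and Ultra II) with no sample tied to either, so their part in any difference was not tested. The p-values measure the spread between these libraries. In tissue RNA, fewer cells of a type and less RNA per cell cannot be told apart.

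A level here is the sum of the abundances of all transcripts that the authors assembled for a gene, a value per transcript length on a scale like FPKM (fragments per kilobase of transcript per 1000000 fragments), scaled between libraries. In units of 1000000 fragments, the relative depth worked out from the values was 35.1 to 60.0 in 13 libraries and 168 in wild-type TAK-418 replicate 1. Kmt2d, the trapped gene, had levels of 13.8 to 14.2 in wild-type vehicle and 10.6 to 14.4 in mutant vehicle libraries, which overlapped. Its levels were 12.5 to 17.99 in wild types and 9.35 to 14.6 in mutants given TAK-418, which overlapped too. Where the trap lies in the gene is not in the labels, so a level over the whole gene is a weak check of the genotype. Kdm1a was at 29.9 to 35.8 in all libraries. All 10 dentate granule cell markers and all 14 markers of the CA fields had a value, as did all 18 choroid plexus markers, the last in at least 1 library. The summed choroid plexus level was 7315 in wild-type vehicle replicate 3 and 5925 in mutant vehicle replicate 1, against 91.3 to 1119 in the others, so results are also given without both.

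Among the ephrins, Efnb3, a transmembrane ligand of several EphB receptors and of EphA4, had the highest mean level at 69.7. It took 33.2% to 54.6% of the summed ephrin level in a library, with a median of 51.4%. Its levels were 67.9, 72.9 and 76.2 in wild-type vehicle and 67.8, 71.5 and 70.3 in mutant vehicle libraries. They were 46.95, 78.0, 64.2, 69.0 and 76.7 in wild types given TAK-418 and 73.6, 71.7 and 69.3 in mutants given it. Only the deepest library, wild-type TAK-418 replicate 1, was low, and the 4 groups overlapped. Efna3, a lipid-anchored A-type ligand, came next with a mean of 46.9. Efnb2, a ligand also known from arteries, had a mean of 11.02. Efna2, Efnb1, Efna1 and Efna5 had means of 5.46, 5.06, 2.70 and 1.93. Efna4 was the lowest ephrin, with a mean of 0.702 and 1 library listed at 0.

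Epha4, a receptor for A-type and B-type ephrins, had the highest level of all 53 genes, with 93.9, 94.7 and 124 in wild-type vehicle and 98.3, 101 and 110 in mutant vehicle libraries. It was at 97.9, 109, 89.99, 110 and 94.0 in wild types given TAK-418 and at 103, 96.3 and 97.6 in mutants given it. The groups overlapped, and Epha4 took 34.7% to 38.3% of the summed Eph receptor level in every library. Epha5 and Epha7, both receptors for A-type ephrins, followed with means of 42.8 and 42.4. Epha7 was at 69.2 in wild-type vehicle replicate 3 and at 36.6 to 44.2 elsewhere. In that library a model of 10 exons and 2227 bases was assembled beside models of 17 exons. Among the B-type receptors the means were 21.01 for Ephb6, whose kinase domain is inactive, 14.1 for Ephb1, 8.995 for Ephb2, 6.26 for Ephb3 and 2.17 for Ephb4. Epha1 was the lowest of the 53 genes, with a mean of 0.666 and 3 libraries listed at 0.

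Sema7a, a lipid-anchored semaphorin that also binds integrins, and Sema6b, a transmembrane ligand of plexin A4, were the highest semaphorins with means of 50.05 and 49.7. Sema6b also had the smallest spread of the 53 genes, with a coefficient of variation (SD over mean) of 4.31% over the 14 libraries against a median of 11.9%. The highest member of class 4 was Sema4d, a plexin B1 ligand made by oligodendrocytes, at 23.2, and the highest of class 5 was Sema5a at 22.6. Of the secreted class 3, Sema3e, the ligand of plexin D1, led with 22.1 and Sema3c followed with 12.96. The other 5 class 3 genes had means of 1.57 to 3.01, and Sema3a, the founding repulsive cue of the class, was the lowest with 1.57.

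Plxna1 and Plxna4, the receptors that pair with neuropilins for class 3 semaphorins, had the highest plexin means, at 35.1 and 29.1. Plxnd1, the receptor of Sema3e, was the lowest plexin with 5.10, and the 9 plexins together summed to 132 to 161 in a library. Nrp1 exceeded Nrp2 in every library, taking 64.0% to 69.8% of their sum. In all, 28 of the 53 genes had a mean level of at least 10, 15 of at least 20 and 3 of at least 50.

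**Figure D1:**
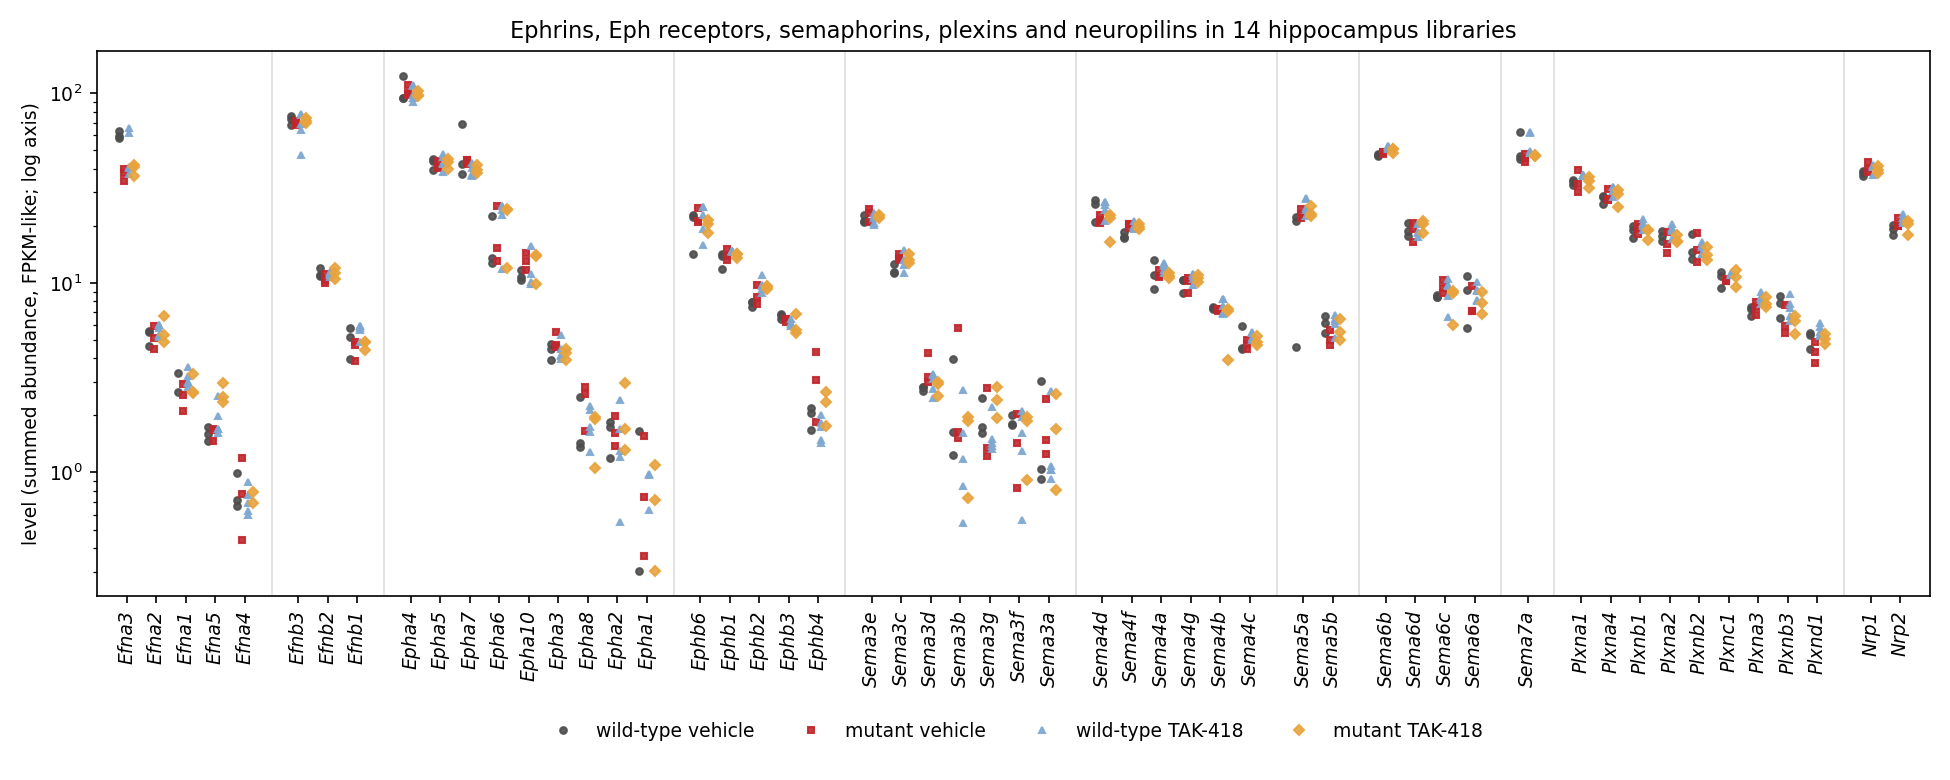
Level of each gene (FPKM-like, log axis) in each of the 14 libraries, by family and by falling mean within a family, with 1 symbol per group. The 5 values listed at 0 (1 of Efna1, 1 of Efna4 and 3 of Epha1) are not drawn; Epha4 lies highest at 89.99 to 124, and Epha1 lowest with a mean of 0.666.

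For 3 genes the level differed with the shape of the assembled models. Efna3 was assembled as models over the whole gene in 9 libraries, with levels of 34.3 to 41.95, and as a piece of 1 exon beside a piece of 4 exons in 5, with levels of 57.7 to 65.4. The 5 were all 3 wild-type vehicle libraries and 2 wild-type TAK-418 libraries. Averaged over the annotated coding bases, a summary that counts each base by the models that cover it, Efna3 was at 23.7 to 28.4 in those 5 and at 34.4 to 41.6 in the 9. The order thus turned with the summary, so a difference in Efna3 between groups cannot be told apart from the way its models were built.

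Epha6, another receptor of A-type ephrins, was at 11.9 to 15.2 in the 6 libraries whose models had a short 3′ end and at 22.4 to 25.4 in the 8 with a long one. On coding bases it was at 11.02 to 14.9 and 20.8 to 25.5, in the same order. The 6 came from all 4 groups, with 2 in each vehicle group and 1 in each TAK-418 group. Sema7a was at 61.4 to 62.2 in the 3 libraries with several 3′ ends and at 43.4 to 49.5 in the other 11, and on coding bases at 58.4 to 60.0 and 43.9 to 48.8. The 3 were wild-type libraries, 1 with vehicle and 2 with TAK-418.

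**Figure D2:**
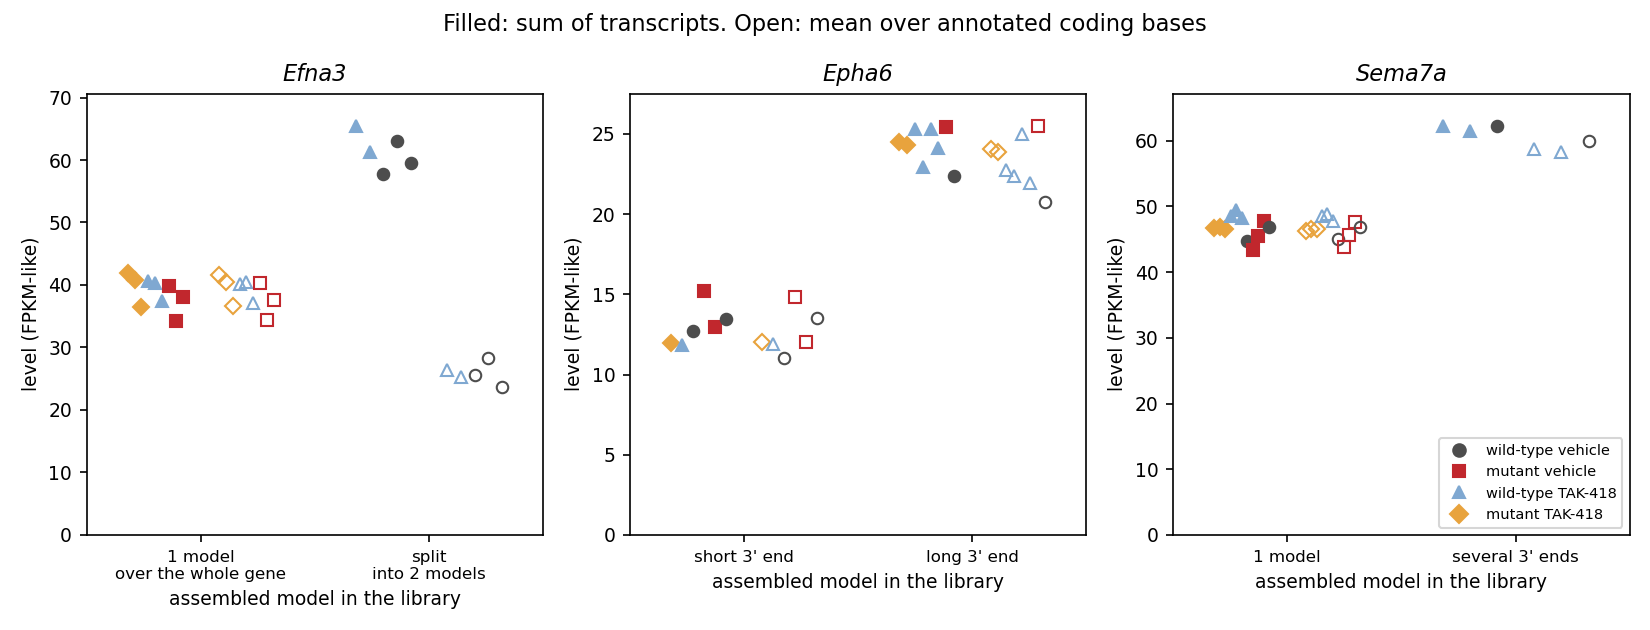
Levels (FPKM-like) of Efna3, Epha6 and Sema7a in each library by the shape of its assembled models, as the sum of transcripts (filled) and as the mean over coding bases (open), with colours and symbols for the groups. For Efna3 the split libraries are highest by the sum, at 57.7 to 65.4, and lowest on coding bases, at 23.7 to 28.4.

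The genotype effect under vehicle compares 3 mutant with 3 wild-type libraries. With limma, 0 of the 53 genes had an adjusted p under 0.05, as had 0.0% of all genes, and 3 genes (5.66%) had an unadjusted p under 0.05, against 5.45% of all genes. The log2 difference was above 0 for 29 genes and below 0 for 24, with a median of 0.01 against 0.00 over all genes. Sema4f, a transmembrane class 4 semaphorin of neurons, was at 18.6, 17.3 and 17.5 in wild-type and at 20.4, 19.5 and 20.4 in mutant libraries. The mutants lay above the wild types without overlap, by a log2 difference of 0.16 ± 0.047 (SE) that had an adjusted p of 0.689. Of the 13 marker lists, meninges and fibroblast (340.1 to 372.2 in wild types and 392.6 to 439.6 in mutants, with 10 of 12 genes found and Foxc1 and Foxd1 at 0) and newborn granule neurons (119.7 to 127.4 and 130.0 to 136.9) did not overlap either. Ptgds made up 75.7% of the first, which overlapped without it, and the part of both was not tested. Sema3c, a secreted class 3 semaphorin, was at 11.3, 11.4 and 12.6 against 13.2, 14.3 and 13.6, also without overlap, by 0.21 ± 0.084 (SE) with an adjusted p of 0.859. Efna3 differed by -0.67 ± 0.19 (SE), with an adjusted p of 0.627, and by 0.52 on coding bases. In place of 3 genes there were 9 without wild-type vehicle replicate 1, 6 when mutant vehicle replicate 1 was left out and 5 when mutant vehicle replicate 3 was.

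The genotype effect under TAK-418 compares 3 mutant with 5 wild-type libraries. Again 0 of 53 genes passed in limma, against 0.0121% of all genes, and 4 (7.55%) had an unadjusted p under 0.05, against 4.92%. The difference was below 0 for 38 of the 53 genes and for 8088 of all 16569, with medians of -0.06 and 0.00. All 9 plexins were among the 38, and they were also below 0 on coding bases, without scaling and by the highest transcript. Without scaling, however, all 9 were below 0 under vehicle too, where 4 were above 0 with scaling. The authors' deposited table listed Plxnb2 at 13.6 in treated wild types and 13.84 in treated mutants, and the other tested plexin loci lower in mutants. Plxna1 was at 36.8, 36.9, 36.9, 37.1 and 37.2 in wild types and at 36.3, 34.2 and 31.5 in mutants, without overlap. It was not among the 4 genes with an unadjusted p under 0.05 in limma. The authors' deposited table gave Plxna1 a p of 0.128 and a q of 0.808. Plxnb1, the receptor of Sema4d, was at 18.9 to 21.6 and at 16.8 to 19.0, which overlapped, with a difference of -0.15 ± 0.063 (SE). Sema4d itself was at 21.1 to 26.8 and 16.4 to 22.9, overlapping, with -0.28 ± 0.12 (SE). Nrp2, the neuropilin of Sema3f, differed by -0.13 ± 0.061 (SE) and Efna5, a ligand of EphA receptors, by 0.33 ± 0.11 (SE). The 4 limma adjusted p-values were each 0.926. The summed level of 10 GABAergic interneuron markers, all found in every library, did not overlap either. It was 793.0 to 994.2 in wild types and 997.4 to 1089 in mutants. Cck made up 36.06% of the sum over all libraries. Without Cck the sums were 514.3 to 703.2 and 569.1 to 687.3, which overlapped, and the part of these markers was not tested. The count of 4 was 2 without wild-type TAK-418 replicate 2 or wild-type TAK-418 replicate 5.

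Averaged over both treatments, the genotype effect sets 6 mutant against 8 wild-type libraries. With limma 0 of 53 genes passed, against 0.00604% of all genes, and 7 (13.2%) had an unadjusted p under 0.05, against 5.85%. The 7 were Efna3, Sema4d, Plxnb3, Plxnd1 and Plxna2 below 0 and Ephb4 and Sema4f above. Of these, Plxnd1 and Plxna2 are named here after their values were seen. Sema4d differed by -0.23 ± 0.089 (SE) and Plxnb3, a plexin made mainly by oligodendrocytes, by -0.24 ± 0.094 (SE), with adjusted p-values of 0.830 and 0.842. The summed level of 13 oligodendrocyte and myelin markers was 3997 to 6174 in wild types and 4403 to 4755 in mutants with vehicle, and 3810 to 5065 and 3856 to 4883 with TAK-418. These ranges overlapped, and their part in the plexin and semaphorin values was not tested. Ephb4, the Efnb2 receptor of veins, differed by 0.35 ± 0.13 (SE) as a sum and by 0.02 on coding bases. On coding bases 4 of the 7 genes were under 0.05 in the same direction, and Efna3 in the other, at 0.38. The count of 7 was 2 without mutant vehicle replicate 1 or, in turn, wild-type vehicle replicate 2, and 11 when wild-type vehicle replicate 1 was left out. It was 3 without wild-type vehicle replicate 3, and also 3 without both libraries high in choroid plexus markers. All 9 plexins had differences below 0, with a median of -0.05, as had 8061 of all 16569 genes, but this average uses the TAK-418 libraries again. Under vehicle alone 4 plexins were above 0 and 5 below.

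**Figure D3:**
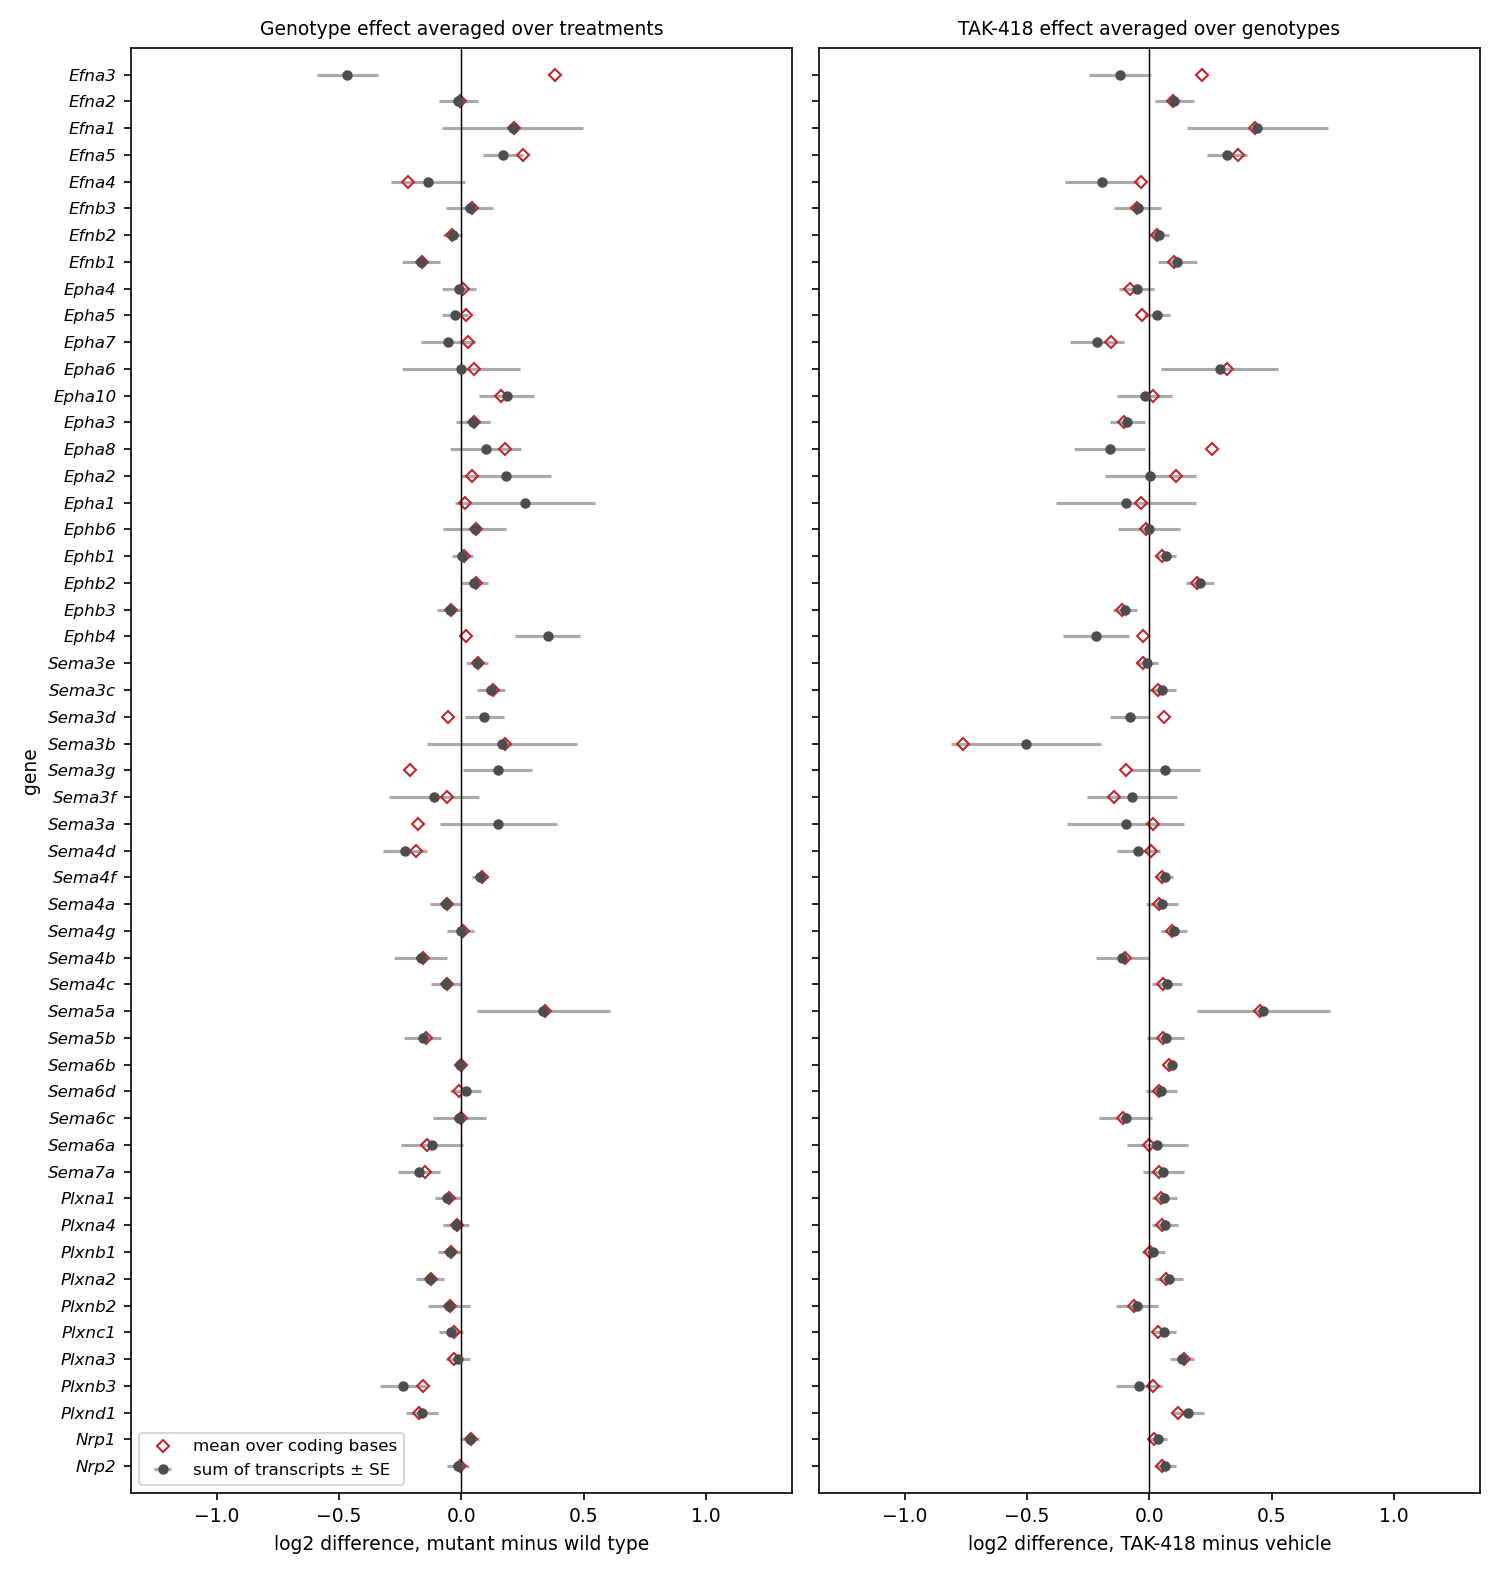
Log2 difference of each gene for the genotype effect averaged over treatments (left, mutant minus wild type) and the TAK-418 effect averaged over genotypes (right, TAK-418 minus vehicle). Filled points are sums of transcripts with limma's standard error and open points are means over coding bases; the median difference is -0.01 on the left and 0.03 on the right, and Efna3 on the left changes from -0.47 to 0.38 between both.

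The TAK-418 effect in wild types compares 5 treated with 3 vehicle libraries and held the smallest p-value of any of the 53 genes over the 7 contrasts. With limma 0 of 53 genes passed, against 0.00604% of all genes, and 7 (13.2%) had an unadjusted p under 0.05, against 8.44% of all genes. All 7 were higher with TAK-418, as were 855 of the 1398 such genes among all tested. In all, 37 of the 53 differences were above 0, with a median of 0.07 against 0.00 over all genes. Of 13 lists of cell type markers, 2 had summed levels that did not overlap between these groups. The 10 newborn granule neuron markers, of which Sox11 was listed at 0 in 11 libraries and Sox4 in 4, summed to 119.7 to 127.4 with vehicle and 146.4 to 170.2 with TAK-418. The thalamus and habenula list, with a value for 10 of 11 genes and none for Pou4f1, summed to 90.3 to 97.7 and 97.9 to 105.7. Without Calb2, which is in both lists, the thalamus sums were 52.8 to 65.2 and 56.7 to 60.2, which overlapped, and the newborn sums were 89.95 to 91.6 and 109 to 127. Their part in the values of these families was not tested. Sema6b was at 46.9, 47.7 and 46.4 with vehicle and at 52.7, 52.2, 51.6, 50.7 and 52.6 with TAK-418. Every treated library lay above every vehicle library, by 0.14 ± 0.028 (SE) on the log2 scale, and the adjusted p was 0.194. Over 18 alternatives the difference was 0.12 to 0.17 and the adjusted p 0.169 to 0.903.

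Ephb2, an EphB receptor of excitatory synapses, was at 7.90, 7.48 and 7.91 with vehicle and at 9.60, 11.1, 8.79, 9.68 and 9.25 with TAK-418. These did not overlap either, with a difference of 0.29 ± 0.076 (SE) and an adjusted p of 0.321. Sema4f was at 17.3 to 18.6 and at 19.3 to 21.2, without overlap, with 0.15 ± 0.042 (SE) and an adjusted p of 0.344. The remaining 4, named after their values were seen, were Nrp2, Plxna3, Ephb1 and Sema5a. Nrp2 was at 17.95 to 20.1 and 20.8 to 23.2, and Plxna3, a neuropilin partner on chromosome X, at 6.69 to 7.50 and 7.69 to 8.91. Both differed without overlap, by 0.18 ± 0.061 (SE) and 0.19 ± 0.066 (SE). Sema5a was at 21.3, 22.2 and 4.58 with vehicle and at 22.4 to 28.1 with TAK-418. The size of its difference, 0.90 ± 0.36 (SE), rested on wild-type vehicle replicate 3, but the other vehicle libraries also lay below every treated one. The summed class 6 level was 79.1 to 86.4 with vehicle and 87.5 to 89.98 with TAK-418. Sema6b was the largest part of this sum, so the sum is no separate result. Sema6a, Sema6c and Sema6d each overlapped between these groups. The count of 7 was 12 without wild-type vehicle replicate 3, which was high in choroid plexus markers, and 11 without that library and mutant vehicle replicate 1.

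The TAK-418 effect in mutants compares 3 treated with 3 vehicle libraries. With limma 0 of 53 genes passed, against 0.00604% of all genes, and 1 gene (1.89%) had an unadjusted p under 0.05, against 4.39%. It was Efna5, at 1.70, 1.68 and 1.47 with vehicle and at 2.51, 2.36 and 2.96 with TAK-418. The treated mutants lay above the vehicle mutants without overlap, by 0.48 ± 0.12 (SE), with an adjusted p of 0.568 and a value of 0.50 on coding bases. In wild types Efna5 was at 1.47 to 1.73 with vehicle and 1.61 to 2.52 with TAK-418, which overlapped. The 53 genes had a median difference of -0.01, with 24 above 0 and 29 below. The same 2 marker lists did not overlap here. Newborn granule neurons summed to 130.0 to 136.9 and 144.5 to 155.9, and thalamus to 89.2 to 93.6 and 96.6 to 98.7. Without Calb2, which is in both lists, the thalamus sums were 52.54 to 59.56 and 56.03 to 57.15, which overlapped. The newborn sums without Calb2 were 94.34 to 100.4 and 105.1 to 114.4, without overlap. The part of both lists was not tested. The count was 3 without mutant TAK-418 replicate 2, 2 without mutant TAK-418 replicate 3, 5 without mutant vehicle replicate 2 and 3 without mutant vehicle replicate 3.

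Averaged over genotypes, TAK-418 gave 0 of 53 genes at an adjusted p under 0.05 in limma, against 0.0121% of all genes. An unadjusted p under 0.05 was reached by 5 genes (9.43%), against 8.26%. The 5, all higher, were Sema6b, Efna5, Ephb2, Plxna3 and Plxnd1, of which the last 2 are named after their values were seen. Their log2 differences were 0.09 ± 0.021 (SE), 0.32 ± 0.082 (SE), 0.21 ± 0.057 (SE), 0.13 ± 0.050 (SE) and 0.16 ± 0.064 (SE), with limma adjusted p-values of 0.266 to 0.555. In mutants Sema6b was at 47.7, 48.8 and 49.0 with vehicle and at 50.8, 48.6 and 50.6 with TAK-418, which overlapped. Ephb2 was at 7.75, 8.44 and 9.68 in vehicle mutants and at 9.61, 9.50 and 9.27 in treated mutants, which overlapped too.

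**Figure D4:**
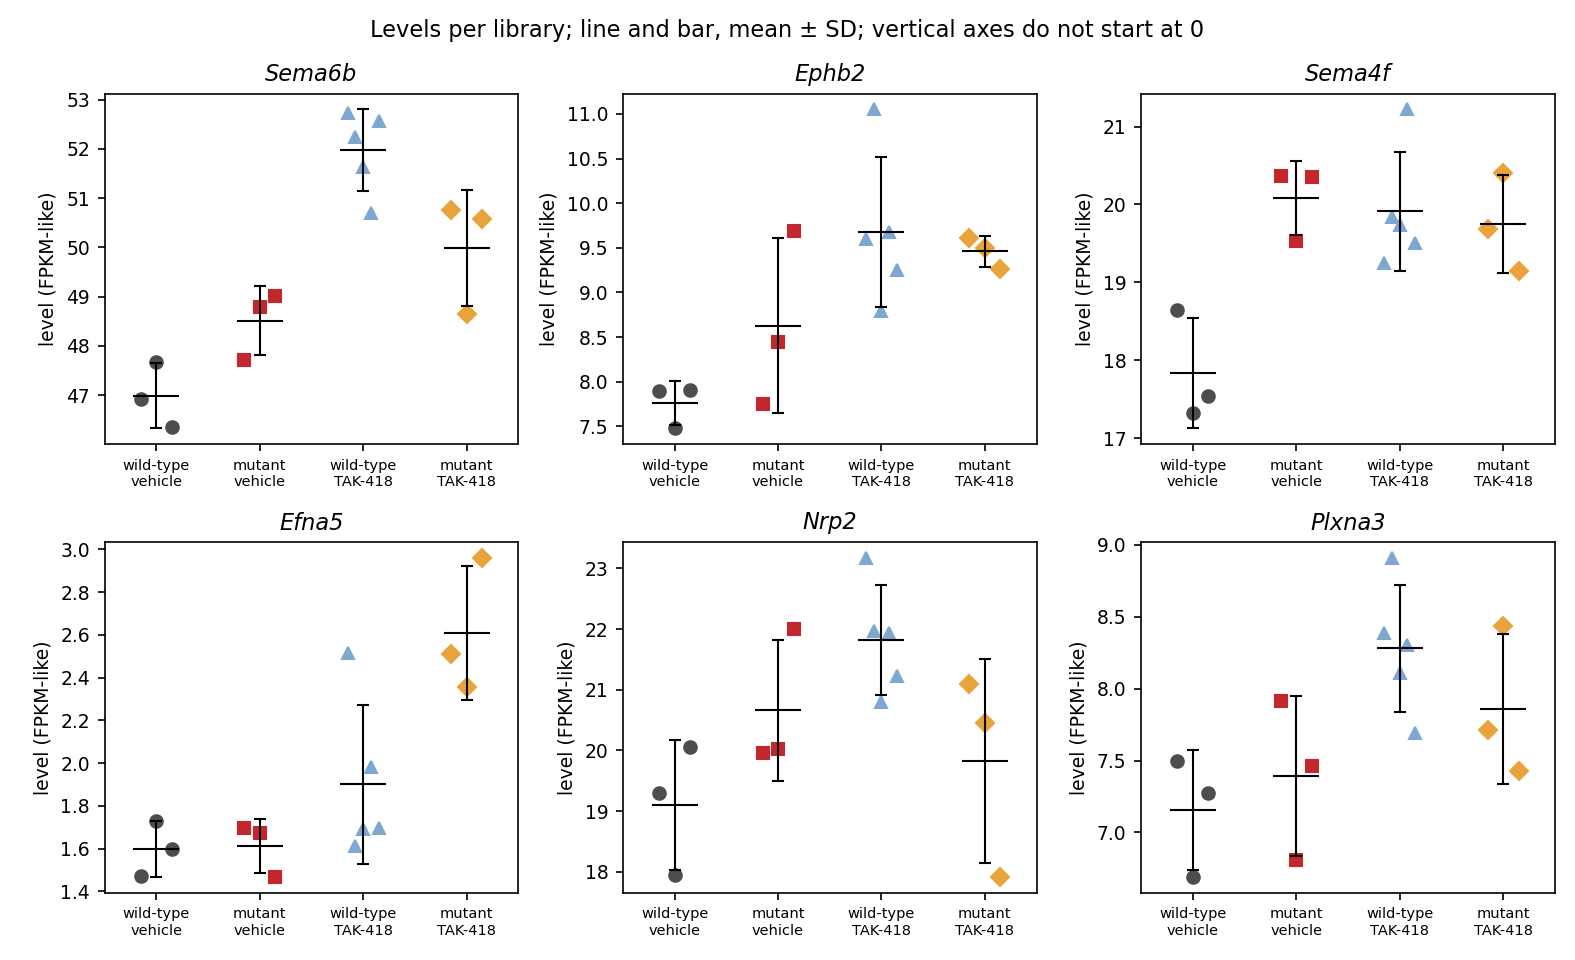
Levels (FPKM-like) of 6 genes in each library by group, with the mean ± SD of a group (n = 3, 3, 5 and 3); the vertical axes do not start at 0. Sema6b lies at 46.4 to 47.7 in wild-type vehicle and at 50.7 to 52.7 in wild-type TAK-418 libraries, and Efna5 is highest in treated mutants at 2.36 to 2.96.

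The interaction asks whether the TAK-418 effect differs between genotypes. With limma 0 of 53 genes passed, against 0.00604% of all genes, and 3 genes (5.66%) had an unadjusted p under 0.05, against 4.44%. These were Sema4f at -0.18 ± 0.063 (SE), Nrp2 at -0.24 ± 0.091 (SE) and Sema6b at -0.10 ± 0.042 (SE), with adjusted p-values of 0.977. For all 3 the TAK-418 difference was larger in wild types than in mutants. Sema4f levels in treated mutants were 19.2 to 20.4, which overlapped the 19.5 to 20.4 of vehicle mutants. Nrp2 was at 20.7 ± 1.16 (SD, n = 3) in vehicle mutants and 19.8 ± 1.68 (SD, n = 3) in treated ones, which overlapped. Of the 53 interaction values 38 were below 0, with a median of -0.09 against 0.00 over all genes. The 5 wild-type TAK-418 libraries also enter the genotype effect under TAK-418 and the TAK-418 effect in wild types. Shared genes and directions between these contrasts are therefore not independent. The count was 6 without wild-type TAK-418 replicate 3 or mutant vehicle replicate 2 and 1 without mutant vehicle replicate 3.

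The promoter sequences of the 3 genes whose treated and vehicle wild-type libraries did not overlap at the smallest p-values, and of Efna5, the gene with the smallest p in mutants, are shown to place these genes on the genome. Each is the 150 bases before the RefSeq start site on GRCm38.p6, all on the minus strand and written 5′ to 3′ in the direction of the gene. They lie at chr17:56140344-56140493 for Sema6b, chr4:136836013-136836162 for Ephb2, chr6:82939770-82939919 for Sema4f and chr17:62881318-62881467 for Efna5. Capitals mark the GC box GGGCGG and the CCAAT box CCAAT on either strand.
Sema6b: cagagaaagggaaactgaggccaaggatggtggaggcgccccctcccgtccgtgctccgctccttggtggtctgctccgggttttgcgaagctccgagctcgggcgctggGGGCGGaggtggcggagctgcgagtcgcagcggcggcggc
Ephb2: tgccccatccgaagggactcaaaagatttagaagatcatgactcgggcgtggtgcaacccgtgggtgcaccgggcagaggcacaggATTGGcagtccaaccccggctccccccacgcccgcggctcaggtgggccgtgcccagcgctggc
Sema4f: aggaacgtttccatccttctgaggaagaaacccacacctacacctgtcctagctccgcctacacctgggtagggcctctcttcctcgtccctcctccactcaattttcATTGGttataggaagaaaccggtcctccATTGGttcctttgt
Efna5: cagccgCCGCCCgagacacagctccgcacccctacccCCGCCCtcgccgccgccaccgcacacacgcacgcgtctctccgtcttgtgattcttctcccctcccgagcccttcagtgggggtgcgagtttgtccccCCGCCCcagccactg

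Within these 150 bases Sema6b held 1 GC box, Efna5 3, Ephb2 1 CCAAT box and Sema4f 2, so the 4 genes had no marked element in common. The assembled 5′ end of Sema6b lay a median of 6 bases from the RefSeq start and that of Ephb2 78, within 100 bases in all 14 libraries for both. For Sema4f this held in 11 libraries and for Efna5 in 5. Over the 250 bases before a start site, 46 of the 61 RefSeq promoters of 47 of the 53 genes held a GC box (75.4%), against 32.7% of all 32851 RefSeq promoters. A CCAAT box was in 31.1% against 33.9%, and the TATA box TATAAA in 1.64% against 12.4%. The promoters of these families held a median of 16 CpG sites and 64.4% G and C, against 6 and 52.4% in all. The promoters of all genes were taken with or without a value in these libraries, whereas all 53 genes had a value. No comparison with the promoters of expressed genes was made, so these shares do not set the families apart from other expressed genes. Promoters of 1 gene can also overlap, as those of Epha7 do.

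Sema3b, a secreted class 3 semaphorin, was highest in the libraries with the most choroid plexus marker RNA. On coding bases it was at 5.30 in mutant vehicle replicate 1 and 3.97 in wild-type vehicle replicate 3, the 2 libraries highest in those markers. It was next highest, at 1.27, in mutant vehicle replicate 3, where the markers summed to 1119, and at 0.850 in mutant TAK-418 replicate 1, where they summed to 743. In the other 10 libraries it was at 0.1495 to 0.689, and the markers summed to 91.3 to 152. In both highest libraries a model of 19 exons was assembled, which of the other 12 was assembled only in the deepest one. The summed level of Sema3b gave a TAK-418 difference averaged over genotypes of -0.51 ± 0.31 (SE), and of -0.09 without those 2 libraries, or -0.27 without the mutant one alone. Epha1, at 1.57 and 1.65, and Plxnb2, at 18.3 and 18.2, also had their highest summed levels there, against at most 1.09 and 16.4 elsewhere. On coding bases the same held for 4 of the 53 genes, the other being Sema3f, at 1.31 and 1.14 against at most 0.636 elsewhere. The share over all genes was not worked out, so these genes cannot be read as an excess. Epha1 is a weak case, at only 0.139 and 0.165 on coding bases. Its main models had at most 3 exons, against 17 annotated exon blocks, and its exons overlap Zyx on the other strand.

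**Figure D5:**
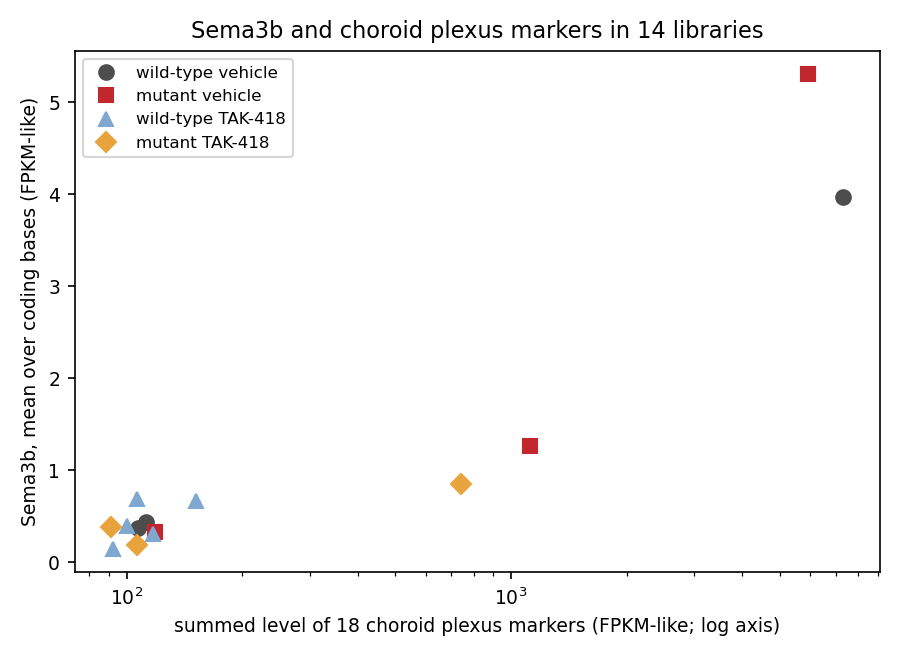
Sema3b level on coding bases (FPKM-like) against the summed level of 18 choroid plexus markers (FPKM-like, log axis) in each of the 14 libraries, with symbols by group. The 2 libraries at the upper right, 1 mutant vehicle and 1 wild-type vehicle, have marker sums of 5925 and 7315 and Sema3b levels of 5.30 and 3.97.

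The authors' deposited tables compare group values over 81411 loci in 4 pairs of groups, and 62 of the loci held a gene of these families, 11 of them jointly with another gene. For mutants over wild types under vehicle, the authors' deposited table had 0 of 54 tested loci at a q under 0.05, against 0.224% of all loci, and 0 at a p under 0.05, against 4.32%. In the authors' deposited table of treated mutants over treated wild types these were 0 of 56 against 0.218% and 2 against 4.1%. The 2 were Efnb1, a transmembrane ephrin on chromosome X, at 3.96 in wild types and 3.34 in mutants, and Sema6a, a plexin A2 and A4 ligand, at 7.25 and 6.38. In the authors' deposited table of treated mutants over vehicle wild types, 0 of 55 loci had a q under 0.05, against 0.324%, and 4 had a p under 0.05, against 4.49%. The 4 were Ephb2 (5.98 in wild types and 7.29 in mutants), Epha8 (0.536 and 0.779), Sema3b (1.352 and 0.553) and Sema3f (1.03 and 0.486). For vehicle mutants over treated wild types, 1 of 55 loci in the authors' deposited table had a q under 0.05, against 0.611%, and 5 had a p under 0.05, against 6.48%. The 1 was Sema3b, at 0.561 in treated wild types and 1.95 in vehicle mutants, with a q of 0.00995 in the authors' deposited table. It is the gene that was high in a vehicle mutant library with choroid plexus markers, and the pooled table gives no spread between libraries. The other 4 were Plxna2, Sema6a, Efnb1 and Sema3f, the last also highest on coding bases in the 2 libraries with choroid plexus markers. The 4 tables share groups with each other and libraries with the contrasts above.

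For Efna3 the authors' deposited table listed 23.4 in wild types and 22.9 in mutants under vehicle, with a q of 1.00, where the summed transcripts gave 60.1 ± 2.76 (SD, n = 3) and 37.4 ± 2.86 (SD, n = 3). For Sema6b the authors' deposited table listed 32.98 in vehicle wild types and 34.9 in treated mutants. For Ephb2 the same authors' deposited table gave a log2 fold change of 0.29 with a p of 0.0426 and a q of 1.00. No deposited table compares treated with vehicle mutants. Against vehicle wild types, at 1.778 and 1.79, the authors' deposited tables listed Efna5 at 2.121 in vehicle mutants and 2.39 in treated mutants. The summed transcripts gave means of 1.6 in vehicle wild types, 1.614 in vehicle mutants and 2.608 in treated mutants, so the gap between the mutants was wider there.

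Other genes of axon guidance were followed as 3 lists, chosen with earlier results of these data known. Of 37 tested genes among other cues and receptors (netrins, Slits, Robos, Dcc and related genes), 0 passed in limma in any of the 7 contrasts. The same was found for 16 coreceptors and proteases and for 50 intracellular effectors. With TAK-418 in wild types an unadjusted p under 0.05 was reached by 11 of 37 genes (29.7%), 3 of 16 (18.75%) and 10 of 50 (20%), of which 8, 3 and 9 were higher, against 8.44% of all genes. The genes with the smallest p were Slit1, a secreted Robo ligand, at 0.25 ± 0.058 (SE), Gpc1, a heparan sulfate proteoglycan, at 0.26 ± 0.054 (SE), and Dpysl3, a collapsin response mediator that is also in the newborn granule neuron list, at 0.44 ± 0.093 (SE). Their adjusted p-values were 0.249, 0.194 and 0.194. With TAK-418 in mutants the counts were 3 of 37 (8.11%), 1 of 16 (6.25%) and 3 of 50 genes (6%), against 4.39% of all genes. Under vehicle the genotype effect gave 5 of 37 (13.5%), 1 of 16 (6.25%) and 2 of 50 genes (4%), against 5.45% of all genes, with Slit1 at 0.24 ± 0.065 (SE), the cell adhesion molecule Cntn2 at -0.29 ± 0.086 (SE) and Ngef, the guanine exchange factor that EphA4 uses, at -0.25 ± 0.062 (SE). Their adjusted p-values were 0.627, 0.693 and 0.627.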

How the data were processed

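RNA of 14 mouse hippocampus libraries was sequenced. Reads were aligned to mm10 by tools that include TopHat2 2.1.0, per the submitters' processing notes, and the library kits do not state strand in the labels. CLASS 2.1.7 was the authors' transcript assembler, run per library, per the file headers. The deposited abundance is a score whose FPKM-like scale was worked out from the values: for 93.5% to 99.6% of checked single-exon transcripts, abundance times length fell within 0.1 of a whole multiple of 1 step, and that step gave the relative depth. The share was under 98.5% in 4 libraries, all of wild types given TAK-418, and 98.5% or more in all others. Its part was not tested in any contrast that uses this group, which includes the genotype effect under TAK-418 and the interaction. The authors' 4 tables hold, per the file headers, 1 FPKM value per group, a log2 fold change, its p-value and its q-value for a locus, in the layout of Cuffdiff. The order of their groups was checked against the libraries.

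Transcripts were assigned to GENCODE M21 genes by a shared intron, or for single exons by 50% overlap, summed, and scaled by median ratios to the 13273 genes that had a value everywhere. Tests used log2(value + 0.9) of genes found in 3 or more libraries; 0.9 is the 10th percentile of values above 0, so differences of low genes are understated. A gene listed at 0 is one with no assembled transcript. One limma 3.58.1 fit (eBayes with trend, R 4.3.3) held all 14 libraries as 4 group means, with 7 contrasts and Benjamini-Hochberg adjustment over all 16569 genes at a threshold of 0.05. The step was tested on simulated data. How reads shared between overlapping genes were divided is not stated: exons of 11 of the 53 genes overlap a gene on the other strand and 3 one on the same strand, so their levels are less certain.

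The members and gene lists were chosen with earlier results of these data known. Named genes were the 2 highest of each family, the 3 with the smallest p in each direction of a contrast, those with a p under 0.05 in a deposited table, those with a library apart, and Kmt2d and Kdm1a; genes of other lists had the smallest p of their list. Promoters are from RefSeq (GRCm38.p6). Python was used for the rest.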

Additional observations from a re-analysis of the deposited data

Results flagged for a closer look

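In the wild-type TAK-418 group, the only group of 4 or more libraries, each of the 53 genes was screened for a library far from the other 4. This flagged 5 genes. The rule flags about 1 in 20 by chance if values are normally distributed. The share flagged over all genes was not worked out, so the 5 cannot be read as an excess. Epha6 was at 11.86 in replicate 3, the lowest, against 22.9 to 25.3 in the others, and it was as far apart on coding bases, at 11.9 against 21.9 to 25.0. Replicate 3 was the only library of this group whose Epha6 models had a short 3′ end. Nrp1 was at 37.02 in replicate 3, the lowest, against 40.9 to 41.97, with 37.1 against 40.4 to 41.4 on coding bases. Sema3a was at 2.691 in replicate 3, the highest, against 0.921 to 1.077, but the lowest on coding bases, at 0.546 against 0.839 to 1.04, where it was assembled as 4 separate pieces. Epha10 was at 15.61 in replicate 4, the highest, against 9.81 to 11.2, with 11.2 against 8.84 to 9.91 on coding bases. Sema3g was at 2.21 in replicate 2, the highest, against 1.34 to 1.51, but the lowest on coding bases, at 1.13 against 1.32 to 1.36. Of the 5 values 3 came from replicate 3. The cause of these values was not tested.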

How the results depend on the processing

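Across the alternatives, 0 of the 53 genes had an adjusted p under 0.05 in limma in any contrast, leave-one-out included. The 6 genes with the smallest p-values of each contrast (3 a direction, 42 differences in all) were recomputed. Of the 822 values so obtained, 801 kept their direction and side of the threshold. The 42 differences were picked by their p-values in these same libraries, so the 801 are no independent check of direction. Over all 53 genes and 7 contrasts, 60 of 371 differences had the other sign on coding bases. Counts of genes at an unadjusted p under 0.05 moved more. Without scaling they were 8 for genotype under TAK-418, 0 for the interaction, 11 for genotype averaged over treatments and 3 for TAK-418 averaged over genotypes, and the median differences were -0.058 for genotype under vehicle, -0.15 for genotype under TAK-418 and -0.094 for genotype averaged. With only the compared groups in the fit, genotype under TAK-418 gave 8. The highest transcript gave 2 for genotype under TAK-418, 2 for TAK-418 in mutants and 1 for the interaction, and coding bases (a summary chosen after seeing the data) gave 6 for genotype under vehicle. Without both libraries high in choroid plexus markers the counts were 11 for TAK-418 in wild types and 3 for genotype averaged, and the median for genotype under vehicle was 0.085. Leaving out 1 library gave 3 to 9 genes for genotype under vehicle, 2 to 6 for genotype under TAK-418, 1 to 5 for TAK-418 in mutants, 6 to 12 for TAK-418 in wild types, 1 to 6 for the interaction, 2 to 11 for genotype averaged and 4 to 7 for TAK-418 averaged.

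Of the 822 values, 21 took the other sign. Efna3 did so with multi-exon transcripts only (0.67 for genotype under vehicle, 0.44 for TAK-418 in wild types, -0.36 for the interaction, 0.49 for genotype averaged), which drops its piece of 1 exon, and on coding bases (0.52, 0.35, -0.27 and 0.38). On coding bases so did Sema3g (-0.20 for genotype under TAK-418, -0.087 for TAK-418 in mutants), Ephb4 (-0.045 for genotype under TAK-418), Epha8 (0.10) and Sema3d (0.062), both for TAK-418 in mutants. By the highest transcript these were Sema4d (0.0049 for genotype under TAK-418, 0.082 for genotype averaged), Sema3g (-0.014 for genotype under TAK-418), Epha8 (0.0052) and Sema3d (0.0055) for TAK-418 in mutants, Efna3 (0.12 for TAK-418 in wild types) and Efna5 (-0.013 for the interaction). Without scaling it was Sema4f (-0.010 for genotype averaged). The cause of these shifts was not tested. No paired analysis was possible because the labels give no replicate numbers, those used here being in accession order. How depth bears on the low genes was not tested.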

Other observations

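Several genes of these families share a chromosome on GRCm38, at the positions given here. Whether other genes lie between them was not checked. Efna1 (chr3:89271733-89281142), Efna3 (chr3:89313899-89322965) and Efna4 (chr3:89333390-89338028) lie on the minus strand of chromosome 3, with mean levels of 2.70, 46.9 and 0.702. Sema3b (chr9:107597674-107609229) and Sema3f (chr9:107681500-107710475) are both on the minus strand of chromosome 9, with means of 1.95 and 1.58. On chromosome 5, Sema3d, Sema3a, Sema3e and Sema3c lie on the plus strand between 12383385 and 17730268, with means of 3.01, 1.57, 22.1 and 12.96. On chromosome 4, Ephb2 and Epha8 lie at chr4:136647539-136835988 and chr4:136929419-136956816, with means of 8.995 and 1.88.

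Ephb6 varied with the length of its assembled models. Its longest main model, of 6262 bases in wild-type vehicle replicate 2, came with the lowest level, 14.2, and the next longest, of 5763 bases in wild-type TAK-418 replicate 5, with the next lowest, 15.9. Models of 3609 to 3617 bases came with levels of 24.7 to 25.2. On coding bases the levels of those 2 libraries were 14.2 and 15.7, and the cause was not tested.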
